A study of Mus musculus with 24 samples.

Results

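The genes described here are 39 genes of the integrated stress response, the ATF4 pathway, in the kidneys of mice that express mutant uromodulin. They were chosen by name, as ATF4 itself, its partner and downstream transcription factors, and genes known as targets of ATF4 in amino acid metabolism, amino acid transport, tRNA charging and the control of translation. Of the 39 genes, 37 had a probe on the array under the annotation used here (Pycr1 and Slc7a5 had none), and 33 were detected above background (detection p-value under 0.01) on at least 1 of 24 arrays. Slc7a1, Slc7a11, Pck2 and Psph had probes that were not detected on any array, so they have no value below. The 33 detected genes were part of 10576 named genes detected in the series.

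The arrays held whole kidney RNA from transgenic FVB mice, 4 animals to a group and 1 array to an animal. TgUmodC147W mice carry an HA-tagged mouse Umod transgene with the C147W change, and TgUmodwt mice the same transgene with the normal sequence; both transgenes are driven by a fragment of the Umod promoter, which is active in the thick ascending limb (TAL) of the nephron, and both lines keep their own Umod genes. The groups were TgUmodC147W and TgUmodwt females of 2 months, TgUmodC147W and TgUmodwt females of 1 month, and TgUmodC147W and TgUmodwt males of 1 month. The mutant protein is retained in the endoplasmic reticulum (ER) of TAL cells, and the comparisons ask what differs in the kidney at 1 month and with progression to 2 months. No non-transgenic kidney was on the arrays.

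In the integrated stress response, kinases that sense ER stress, amino acid shortage, heme shortage or double-stranded RNA phosphorylate the initiation factor eIF2. Most translation then slows, while the ATF4 messenger is translated better, so that much of the control of ATF4 lies in translation and not in the level of its mRNA. ATF4 pairs with C/EBP proteins on C/EBP-ATF response elements and switches on genes that make, import and charge amino acids, together with DDIT3 (CHOP), TRIB3 and PPP1R15A, which feed back on the response. ER stress also acts through ATF6 and XBP1, which raise chaperones and ER-associated degradation, and a separate ATF4 programme of serine, folate and proline enzymes is well known from cells with damaged mitochondria.

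The core of the response element, TGATGNAA, was searched on both strands of the promoter windows of RefSeq (GRCm38.p6, 250 bases before to 50 bases after the start of each gene). These windows are shown because the element is the known docking site of ATF4 in its target genes. Of 33 members with a window, 11 (33.3%) held a match, against 1219 of 27025 genes of all kinds (4.51%). The members were chosen as targets of ATF4, so this share is a description. The stretches around the match are printed for the 5 named members with a match whose level was called in at least 1 comparison and whose probe has a settled name, 5′ to 3′ on the strand of the gene, with the 8 matching bases in capitals. The motif lies on the strand of the gene in Asns, and on the opposite strand in the other 4.
Atf3 (chr1:191183425-191183454, minus strand): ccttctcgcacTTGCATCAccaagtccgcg
Asns (chr6:7693214-7693243, minus strand): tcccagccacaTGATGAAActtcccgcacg
Chac1 (chr2:119351038-119351067, plus strand): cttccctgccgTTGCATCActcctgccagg
Trib3 (chr2:152344028-152344057, minus strand): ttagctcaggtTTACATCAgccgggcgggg
Nupr1 (chr7:126625562-126625591, minus strand): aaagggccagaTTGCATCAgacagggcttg

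Counted from the start of the gene, the match began at -110 in Atf3 and Nupr1, at -193 in Chac1, at -23 in Asns and at 14 in Trib3. Matches also lay in the windows of Gars and Vldlr, which were not called in any genotype comparison, and of Aars, whose probe has a doubtful name. So did those of Pycr1, Pck2 and Slc7a11, which have no value here. The windows of Atf5, Mthfd2, Aldh18a1, Shmt2, Gpt2, Stc2, Ddit3 and Atf4 held no such letters. The same was true of the called members Cebpb, Ppp1r15a, Ddit4, Slc3a2, Sars, Sesn2 and Xpot. Aldh1l2 and Eif4ebp1 had no window. Binding was not measured.

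All levels below are log2 intensities after background correction and quantile normalization, on a scale whose array median was 5.51, and differences are log2 fold changes with standard errors from limma, with p-values adjusted over all detected probes of a comparison. Between 35.3% and 39.6% of probes were detected on each array. In males this was 38.4% to 39.6% in TgUmodC147W against 35.3% to 36.4% in TgUmodwt. In females of 1 month it was 37.3% to 38.3% against 35.9% to 36.8%, and the genotypes overlapped at 2 months. The part of this difference between arrays in the genotype results was not tested. Xist, the RNA of the inactive X chromosome, matched the sex labels on all arrays but the array of TgUmodC147W females of 1 month replicate 2. There its 4 probes read 4.80 to 5.19, where male arrays gave 4.70 to 5.79 and the other 15 female arrays 9.00 to 12.74. Results of females of 1 month are therefore also given without that array. Umod, whose probe may read the transgene, the animal's own gene or both, read 15.92 ± 0.03 in TgUmodC147W and 15.80 ± 0.12 in TgUmodwt females of 2 months, 15.91 ± 0.02 and 15.82 ± 0.02 in those of 1 month, and 15.88 ± 0.03 and 15.76 ± 0.05 in males (SD, n = 4 each). It was not called in any of the 3 comparisons (adjusted p = 0.501, 0.474 and 0.219), and these levels lie near the top of the array scale of 16.02.

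Cell type markers moved together with genotype. The macrophage markers rose in 6 of 7 genes tested in females of 2 months, 7 of 8 in females of 1 month and 7 of 8 in males. Their summed linear intensity was 6666 to 7623 in TgUmodC147W against 2256 to 2748 in TgUmodwt females of 2 months, 4511 to 8941 against 2246 to 2866 in females of 1 month, and 3519 to 5992 against 1948 to 2894 in males. Fibroblast markers rose in 5 of 5, 4 of 6 and 6 of 6 genes tested in these comparisons, endothelial markers in 1 of 3, 0 of 3 and 3 of 3, and TAL markers in 1 of 7, 2 of 7 and 5 of 7. TAL marker sums in males were 125755 to 138660 in TgUmodC147W against 105702 to 114172 in TgUmodwt kidneys. Proximal tubule markers fell in 0 of 8, 2 of 8 and 2 of 8. In the same order, 5.38%, 10.3% and 21.9% of all genes tested rose, and 3.01%, 7.64% and 15.5% fell. Of 2 podocyte markers tested, Nphs1 fell in females of 1 month, no B cell marker was detected, and Cd3g, the 1 T cell marker detected, was measured on 1 array and not called. Red cell markers, Hba-a1 and Alas2, both fell in females of 2 months, with a summed intensity of 18444 to 43657 in TgUmodC147W against 60554 to 66431 in TgUmodwt kidneys. Neither was called in females of 1 month. In males 1 of the 2 rose, with sums of 61947 to 67674 in TgUmodC147W against 46205 to 63913 in TgUmodwt kidneys. Umod and Slc12a1, the defining TAL genes, were detected on all arrays of both genotypes. In whole kidney RNA, fewer cells of a type and less RNA per cell cannot be told apart, and the part of these cell types in the results below was not tested.

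The 3 comparisons of TgUmodC147W with TgUmodwt ask which genes of the response differ at 1 month in either sex and at 2 months in females. In females of 2 months 10 of 33 members rose (30.3%) and 1 fell (3.03%), where 5.38% of all genes tested rose and 3.01% fell. In females of 1 month 7 of 33 rose (21.2%) and 2 fell (6.06%), where 10.3% of all genes rose and 7.64% fell. In males of 1 month 16 of 32 rose and 5 fell (15.6%), where 21.9% rose and 15.5% fell. With all arrays, the share of members that rose was thus above the share of all genes in each comparison, while the share that fell was close to it. The members were chosen with earlier results of these data known, so this difference in shares is a description. The risen members include Atf3 in each comparison, Trib3 at 2 months and Aldh1l2 in both sexes at 1 month. No TgUmodwt array of those comparisons detected them, so they entered the test through TgUmodC147W arrays alone, and their rise is a description. The share of risen members without them was not counted. Median log2 fold changes of the members were 0.15, 0.07 and 0.33 in the same order, against -0.01, 0.01 and 0.04 for all genes; with the members not above background in a whole group set at their bound, the medians were 0.10, 0.03 and 0.16. Without the array low in Xist, TgUmodC147W females of 1 month replicate 2, 4 members rose and 2 fell at that age. The number risen was also 4 without TgUmodwt females of 1 month replicate 1 or replicate 2. The share of all genes was not counted for the fits that left out an array. They therefore cannot show whether members rose more often than all genes in females of 1 month. Leaving out TgUmodC147W females of 1 month replicate 4 gave 4 fallen. At 2 months, the number fallen was 0 without TgUmodwt replicate 2 or TgUmodC147W replicate 3, and 2 without TgUmodC147W replicate 2.

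**Figure D1:**
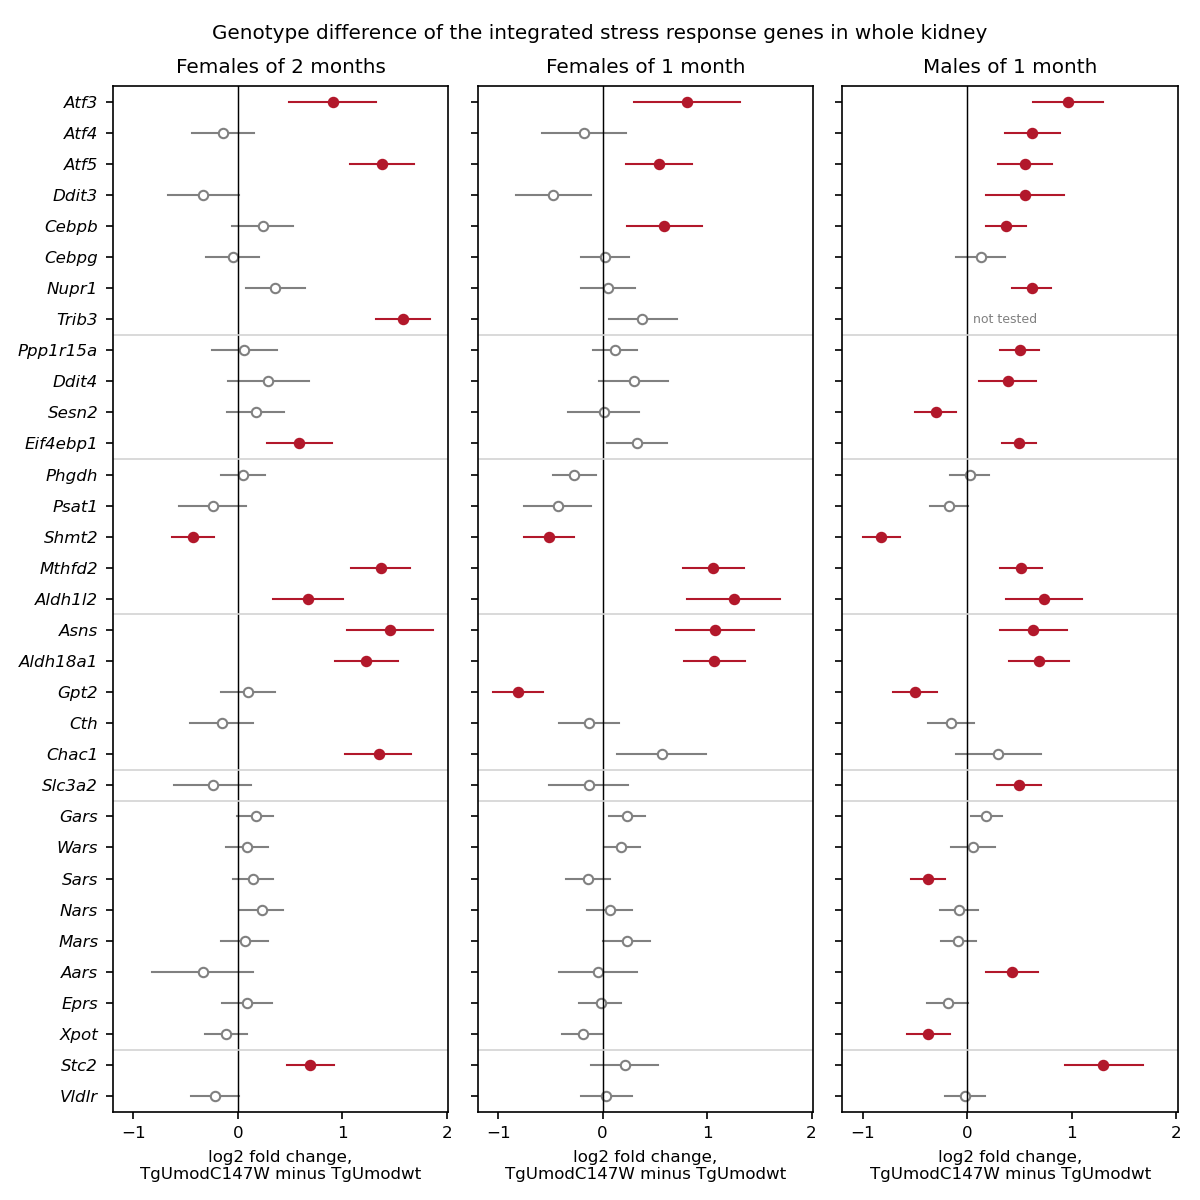
Log2 fold change of TgUmodC147W minus TgUmodwt kidneys (x axis) for each of the 33 detected members (rows, grouped by role), with 95% confidence intervals as lines, in females of 2 months, females of 1 month and males of 1 month. Filled points passed the test (adjusted p under 0.05) and open points did not; points of Atf3, Trib3 and Aldh1l2 are fitted values, in 1 or more panels with a group below background, where they are not measured folds. Atf3, Asns, Aldh18a1, Mthfd2, Aldh1l2 and Atf5 lie to the right in all 3 panels and Shmt2 to the left, while Atf4 lies to the right in males alone.

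Over the 3 comparisons, 23 members were called in at least 1 and 10 in none. The share of all genes with such patterns over the 3 comparisons was not counted, so these numbers are a description. Of the 23, 6 rose in all 3 (Atf3, Atf5, Asns, Aldh18a1, Mthfd2 and Aldh1l2), 3 rose in 2 (Cebpb, Eif4ebp1 and Stc2), 9 rose in 1, Shmt2 fell in all 3, Gpt2 fell in 2, and Sars, Xpot and Sesn2 fell in males. By its brightest probe, no member rose in 1 comparison and fell in another. The other Ddit3 probe did, rising in males and falling in females of 1 month. The levels of the groups did not overlap for 12 members higher and 1 lower in TgUmodC147W females of 2 months, 8 higher and 4 lower in females of 1 month, and 16 higher and 6 lower in males, where 8.52% and 7.54%, 13.6% and 9.93%, and 22.0% and 15.7% of all genes did so.

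Atf4, the central factor of the pathway, passed the test in males alone. Its probe read 12.30, 12.22, 11.73 and 11.88 in TgUmodC147W kidneys, against 11.35, 11.44, 11.42 and 11.42 in TgUmodwt kidneys of males. All 4 TgUmodC147W males lay above all 4 TgUmodwt males, and the difference was 0.62 ± 0.12 (adjusted p = 0.00235). Among females of 2 months the levels were 11.84, 12.17, 12.16 and 12.27 in TgUmodC147W kidneys, against 12.17, 12.23, 12.61 and 12.02 in TgUmodwt kidneys, and among females of 1 month 12.05, 12.34, 12.17 and 11.87 in TgUmodC147W kidneys, against 12.16, 11.84, 12.78 and 12.38 in TgUmodwt kidneys. The female groups overlapped, with differences of -0.14 ± 0.14 (adjusted p = 0.607) at 2 months and -0.18 ± 0.18 (adjusted p = 0.556) at 1 month; the 95% intervals, -0.44 to 0.16 and -0.58 to 0.22, leave out the male value of 0.62. A second, dimmer Atf4 probe gave 0.44 in males (adjusted p = 0.0306), -0.13 at 2 months (adjusted p = 0.65) and -0.02 at 1 month (adjusted p = 0.966) in females. Its 95% interval in females of 1 month, -0.57 to 0.53, held its male value, and that at 2 months, -0.44 to 0.18, did not. The male values have errors of their own, and the test between the sexes is given below.

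Ddit3, which encodes CHOP, a transcription factor of prolonged ER stress that promotes cell death, was also called higher in males alone. Males read 9.17, 9.56, 8.97 and 8.70 in TgUmodC147W kidneys, against 8.56, 8.54, 8.81 and 8.29 in TgUmodwt kidneys, a difference of 0.55 ± 0.17 (adjusted p = 0.0258). TgUmodC147W replicate 4 lay below TgUmodwt replicate 3, and the other TgUmodC147W males above all TgUmodwt males. At 2 months females read 9.17, 8.66, 9.37 and 9.12 in TgUmodC147W kidneys, against 9.52, 9.49, 9.53 and 9.10 in TgUmodwt kidneys, and females of 1 month 8.80, 9.19, 9.23 and 8.49 in TgUmodC147W kidneys, against 9.39, 9.47, 9.54 and 9.18 in TgUmodwt kidneys. The groups overlapped, with differences of -0.33 ± 0.15 (adjusted p = 0.245) and -0.47 ± 0.16 (adjusted p = 0.0789) that did not pass the test. The value at 1 month passed without TgUmodC147W replicate 3 (-0.57, adjusted p = 0.0495) and was -0.55 without the array low in Xist (adjusted p = 0.067). The other Ddit3 probe rose in males (0.50, adjusted p = 0.00797) and fell in females of 1 month (-0.40, adjusted p = 0.0262). A fall in females of 1 month was also called with the authors' normalized values (adjusted p = 0.0483) and with a trended, robust prior (0.0477). The mean of the Ddit3 probes gave the same call (0.0288). In males the call was lost without TgUmodwt replicate 1, 2 or 4 or TgUmodC147W replicate 1 or 2, with adjusted p up to 0.0753.

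Atf3, a stress-induced repressor and target of ATF4, was close to background throughout: it was detected on 3 of 24 arrays, 1 TgUmodC147W array in each comparison and no TgUmodwt array. At 2 months its levels were 6.33, 5.74, 6.75 and 6.36 in TgUmodC147W kidneys, against 5.33, 5.14, 5.47 and 5.63 in TgUmodwt kidneys. At 1 month they were 5.71, 6.87, 6.04 and 5.67 in TgUmodC147W kidneys, against 5.33, 5.01, 5.32 and 5.38 in TgUmodwt kidneys of females and 5.99, 5.65, 5.52 and 6.33 in TgUmodC147W kidneys, against 4.95, 4.82, 4.93 and 4.94 in TgUmodwt kidneys of males. The TgUmodC147W arrays lay above the TgUmodwt arrays in each comparison without overlap, with adjusted p of 0.0146, 0.038 and 0.000666; since no TgUmodwt array measured it above background, no fold is given. The single array of females of 1 month that detected Atf3 was the one low in Xist, and without it Atf3 was not tested at that age. The call at that age was also lost without any 1 TgUmodwt array or TgUmodC147W replicate 3 (adjusted p up to 0.0944).

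Atf5, a factor related to ATF4 that is also controlled by translation and is known for its part in the mitochondrial stress response, rose in all 3 comparisons. The levels at 2 months were 11.12, 11.72, 11.41 and 11.47 in TgUmodC147W kidneys, against 9.98, 9.81, 10.11 and 10.31 in TgUmodwt kidneys. Those at 1 month were 10.38, 10.80, 10.40 and 10.74 in TgUmodC147W kidneys, against 10.06, 9.68, 10.20 and 10.21 in TgUmodwt kidneys of females and 10.07, 10.50, 10.01 and 10.11 in TgUmodC147W kidneys, against 9.47, 9.76, 9.73 and 9.54 in TgUmodwt kidneys of males. The groups did not overlap in any comparison, with differences of 1.38 ± 0.14 (adjusted p = 0.000251), 0.54 ± 0.14 (adjusted p = 0.0288) and 0.55 ± 0.12 (adjusted p = 0.0044). At 1 month in females the call was lost without the array low in Xist (adjusted p = 0.0826), TgUmodC147W replicate 4 or TgUmodwt replicate 1 or 2 (0.0606 to 0.0642).

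Cebpb, a C/EBP partner of ATF4 that inflammatory signals also raise, read 11.34, 11.54, 11.45 and 11.56 in TgUmodC147W kidneys, against 10.85, 11.20, 11.38 and 11.51 in TgUmodwt kidneys of females of 2 months. Females of 1 month read 11.70, 12.02, 11.34 and 11.76 in TgUmodC147W kidneys, against 10.90, 10.88, 11.26 and 11.41 in TgUmodwt kidneys, and males 11.71, 11.69, 11.55 and 11.70 in TgUmodC147W kidneys, against 11.15, 11.30, 11.29 and 11.43 in TgUmodwt kidneys. The groups overlapped at 2 months and in females of 1 month and were apart in males. Its differences were 0.24 ± 0.13 (adjusted p = 0.345), 0.59 ± 0.16 (adjusted p = 0.0317) and 0.37 ± 0.08 (adjusted p = 0.00598), and the call in females of 1 month was lost without TgUmodC147W replicate 1, 2 or 4 or TgUmodwt replicate 1 or 2 (adjusted p 0.0579 to 0.0893, and 0.0873 without the array low in Xist). Cebpg, another C/EBP partner, was not called, with differences of -0.05 (adjusted p = 0.86), 0.02 (adjusted p = 0.916) and 0.13 (adjusted p = 0.383).

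Nupr1, a small nuclear stress protein induced by ATF4, has its promoter element printed above. Males read 11.84, 11.83, 11.70 and 11.61 in TgUmodC147W kidneys, against 11.14, 11.23, 11.07 and 11.07 in TgUmodwt kidneys, all TgUmodC147W above all TgUmodwt, a difference of 0.62 ± 0.08 (adjusted p = 0.000253). Its female levels were 11.65, 11.54, 11.98 and 11.75 in TgUmodC147W kidneys, against 11.63, 11.42, 11.23 and 11.19 in TgUmodwt kidneys at 2 months and 11.42, 11.59, 11.81 and 11.62 in TgUmodC147W kidneys, against 11.63, 11.68, 11.66 and 11.28 in TgUmodwt kidneys at 1 month. These overlapped, with differences of 0.36 ± 0.13 (adjusted p = 0.12) and 0.05 ± 0.12 (adjusted p = 0.822).

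Trib3, a pseudokinase that restrains ATF4 and CHOP, separated the genotypes at 2 months. It was not above background in any TgUmodwt group nor in males, where it was not tested. At 2 months the levels were 7.24, 7.69, 7.57 and 7.77 in TgUmodC147W kidneys, against 5.96, 5.91, 6.10 and 5.99 in TgUmodwt kidneys, with all 4 TgUmodC147W arrays detected and above all TgUmodwt arrays. Trib3 was thus at least 1.97-fold higher in TgUmodC147W (adjusted p = 3.44e-05), where the bound sets the mean of the TgUmodC147W arrays against the lowest signal called present on each TgUmodwt array. At 1 month female levels were 6.06, 6.51, 6.47 and 6.21 in TgUmodC147W kidneys, against 6.27, 5.76, 6.01 and 5.68 in TgUmodwt kidneys, with 2 TgUmodC147W arrays above background, overlapping groups and adjusted p = 0.108. Males read 5.78, 6.26, 5.93 and 6.19 in TgUmodC147W kidneys, against 5.69, 5.83, 5.64 and 6.03 in TgUmodwt kidneys.

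Of the 4 genes that control translation and growth, 3 rose and 1 fell in males, where 21.9% and 15.5% of all genes did. Eif4ebp1 alone rose in females of 2 months, where 5.38% of all genes rose, and none was called in females of 1 month. Eif4ebp1 encodes 4E-BP1, a repressor of cap-dependent translation. It read 10.32, 10.80, 11.00 and 10.75 in TgUmodC147W kidneys, against 10.32, 9.98, 10.07 and 10.15 in TgUmodwt kidneys of females of 2 months and 10.43, 10.39, 10.39 and 10.37 in TgUmodC147W kidneys, against 9.88, 9.90, 9.81 and 10.01 in TgUmodwt kidneys of males. The 2 groups met at 10.32 at 2 months and were apart in males. Female kidneys of 1 month read 10.67, 10.69, 10.40 and 10.54 in TgUmodC147W kidneys, against 10.19, 9.93, 10.52 and 10.34 in TgUmodwt kidneys, with overlap. The differences were 0.59 ± 0.14 (adjusted p = 0.0281), 0.49 ± 0.07 (adjusted p = 0.000504) and 0.33 ± 0.13 (adjusted p = 0.113) in that order. At 2 months 6 of 8 arrays, left out singly, ended the call (TgUmodwt replicates 2, 3 and 4 and TgUmodC147W replicates 2, 3 and 4, adjusted p up to 0.0895), and at 1 month leaving out TgUmodwt replicate 3 gave a call in females (0.42, adjusted p = 0.0497).

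Ppp1r15a, which encodes GADD34, the subunit that brings a phosphatase to eIF2 and ends the response, read 8.72, 8.69, 8.87 and 8.84 in TgUmodC147W kidneys, against 8.43, 8.23, 8.28 and 8.17 in TgUmodwt kidneys of males, a difference of 0.50 ± 0.09 (adjusted p = 0.00107) with no overlap. The levels in females were 8.81, 8.20, 8.67 and 8.91 in TgUmodC147W kidneys, against 8.62, 8.69, 8.59 and 8.45 in TgUmodwt kidneys at 2 months and 8.64, 8.94, 8.73 and 8.72 in TgUmodC147W kidneys, against 8.65, 8.59, 8.54 and 8.76 in TgUmodwt kidneys at 1 month. These groups overlapped, with 0.06 (adjusted p = 0.864) and 0.12 (adjusted p = 0.437). Ddit4, an inhibitor of mTORC1, read 9.70, 9.86, 10.33 and 9.81 in TgUmodC147W kidneys, against 9.58, 9.52, 9.50 and 9.55 in TgUmodwt kidneys of males. Those of females were 9.76, 9.09, 10.05 and 9.71 in TgUmodC147W kidneys, against 9.32, 9.46, 9.50 and 9.16 in TgUmodwt kidneys at 2 months and 10.07, 9.90, 9.65 and 10.35 in TgUmodC147W kidneys, against 9.44, 9.71, 9.77 and 9.84 in TgUmodwt kidneys at 1 month. The groups were apart in males and overlapped in females. The differences were 0.39 ± 0.12 (adjusted p = 0.0308), 0.29 ± 0.18 (adjusted p = 0.374) and 0.30 ± 0.15 (adjusted p = 0.205), in that order. The male call was lost without any 1 of the TgUmodwt males (adjusted p up to 0.0703), and at 2 months a call was gained without TgUmodC147W replicate 2 (0.48, adjusted p = 0.0361). Sesn2, a leucine sensor upstream of mTORC1, fell in males by 0.30 (adjusted p = 0.0188), a call lost without TgUmodC147W replicate 1 or TgUmodwt replicate 1 or 3 (adjusted p up to 0.0567), and was 0.17 (adjusted p = 0.485) and 0.01 (adjusted p = 0.976) in females.

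Of the enzymes of amino acid and folate metabolism, Asns, Aldh18a1, Mthfd2 and Aldh1l2 rose in every comparison, and Shmt2 fell in every one. Asns, asparagine synthetase, whose promoter element is printed above, read 10.02, 10.15, 10.44 and 10.04 in TgUmodC147W kidneys, against 8.87, 8.16, 8.60 and 9.17 in TgUmodwt kidneys of females of 2 months. Females of 1 month read 8.83, 9.63, 9.16 and 9.10 in TgUmodC147W kidneys, against 8.00, 7.87, 8.15 and 8.39 in TgUmodwt kidneys, and males 8.44, 8.38, 8.39 and 9.01 in TgUmodC147W kidneys, against 8.03, 7.89, 7.70 and 8.07 in TgUmodwt kidneys. The TgUmodC147W arrays were above every TgUmodwt array in each comparison. The differences were 1.46 ± 0.19 (adjusted p = 0.00119), 1.08 ± 0.17 (adjusted p = 0.0024) and 0.63 ± 0.15 (adjusted p = 0.00627). Without the array low in Xist, the value at 1 month in females was 0.93 (adjusted p = 0.00421). With all arrays, a dimmer Asns probe rose by 1.53 at 2 months (adjusted p = 0.000391). No TgUmodwt array of 1 month measured this probe above background, so it entered those tests through TgUmodC147W arrays alone. Its rise there, at least 1.44-fold in females and 1.04-fold in males (adjusted p = 0.00572 and 0.00455), is a description.

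Aldh18a1 encodes the mitochondrial enzyme that starts proline synthesis from glutamate. Its levels at 2 months were 7.95, 7.84, 8.23 and 8.06 in TgUmodC147W kidneys, against 7.17, 6.68, 6.68 and 6.62 in TgUmodwt kidneys. Those at 1 month were 7.74, 7.91, 8.11 and 7.64 in TgUmodC147W kidneys, against 6.77, 7.04, 6.56 and 6.75 in TgUmodwt kidneys of females, 3 of these 4 TgUmodwt arrays detecting it, and 7.36, 7.45, 7.84 and 7.73 in TgUmodC147W kidneys, against 7.04, 7.09, 6.82 and 6.68 in TgUmodwt kidneys of males. Again no group overlapped with its control, and the differences were 1.23 ± 0.14 (adjusted p = 0.000377), 1.07 ± 0.13 (adjusted p = 0.000709) and 0.69 ± 0.13 (adjusted p = 0.00195). The value at 1 month in females was 1.05 without the array low in Xist (adjusted p = 0.00282).

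Mthfd2, the mitochondrial folate enzyme that is high in embryonic and dividing cells and low in most adult tissue, gave 9.99, 9.94, 10.15 and 10.10 in TgUmodC147W kidneys, against 8.69, 8.30, 8.82 and 8.91 in TgUmodwt kidneys in females of 2 months. Females of 1 month gave 9.46, 9.97, 9.57 and 9.66 in TgUmodC147W kidneys, against 8.52, 8.41, 8.86 and 8.61 in TgUmodwt kidneys, and males 9.12, 9.08, 9.03 and 9.37 in TgUmodC147W kidneys, against 8.58, 8.62, 8.66 and 8.70 in TgUmodwt kidneys. The gap between the groups was clear of every array in each comparison. It was 1.37 ± 0.13 (adjusted p = 0.00016), 1.06 ± 0.13 (adjusted p = 0.000773) and 0.51 ± 0.09 (adjusted p = 0.00135), and 0.96 in females of 1 month without the array low in Xist (adjusted p = 0.00195). A dimmer Mthfd2 probe rose by 0.90 in females of 1 month (adjusted p = 0.0166). At 2 months and in males no TgUmodwt array detected this probe, so it entered those tests through TgUmodC147W arrays alone. Its rise there, at least 2.05-fold and at least 1.20-fold (adjusted p = 0.000145 and 0.00482), is a description.

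Aldh1l2, the mitochondrial formyltetrahydrofolate dehydrogenase, was dim, detected on 13 of 24 arrays. At 2 months it read 7.03, 7.30, 7.44 and 6.91 in TgUmodC147W kidneys, against 6.56, 6.55, 6.12 and 6.75 in TgUmodwt kidneys. Females of 1 month read 7.08, 7.57, 7.32 and 6.67 in TgUmodC147W kidneys, against 5.77, 5.93, 5.61 and 6.32 in TgUmodwt kidneys, and males 6.45, 6.19, 6.57 and 7.09 in TgUmodC147W kidneys, against 5.77, 6.00, 5.68 and 5.93 in TgUmodwt kidneys. No TgUmodwt kidney of 1 month detected it, against 4 of 4 TgUmodC147W females and 3 of 4 TgUmodC147W males. It was at least 1.49-fold higher in TgUmodC147W females of 1 month (adjusted p = 0.00255), higher by 0.67 ± 0.15 (adjusted p = 0.0224) in females of 2 months, where 2 TgUmodwt arrays measured it, and past the test in males (adjusted p = 0.00556), where no fold is given. Without the array low in Xist the call at 1 month in females held (adjusted p = 0.00753). At 2 months the call was lost without TgUmodwt replicate 2 or 3 or TgUmodC147W replicate 3 (adjusted p up to 0.0705).

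**Figure D2:**
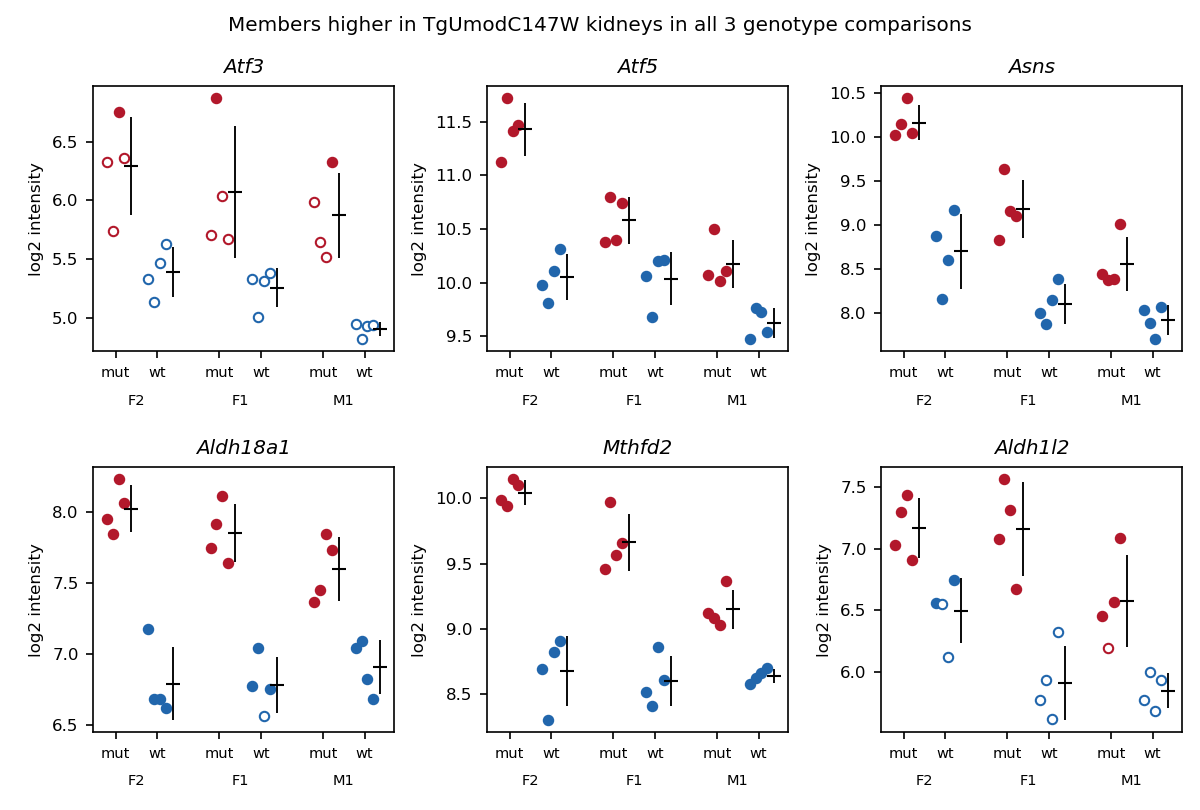
Log2 intensity (y axis) of the 6 members that rose in all 3 genotype comparisons, for females of 2 months (F2), females of 1 month (F1) and males of 1 month (M1), with TgUmodC147W (mut, red) left of TgUmodwt (wt, blue). Each point is an array, filled where the probe was detected (p under 0.01); bars are the mean and SD of 4 arrays, and the red points lie above the blue ones in every pair. Open points, among them all TgUmodwt points of Atf3, were not above background.

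Shmt2, the mitochondrial serine hydroxymethyltransferase that feeds Mthfd2 with substrate, went the other way. The levels were 9.96, 9.69, 9.87 and 9.96 in TgUmodC147W kidneys, against 10.39, 10.33, 10.24 and 10.26 in TgUmodwt kidneys of females of 2 months. They were 9.91, 9.47, 9.88 and 9.77 in TgUmodC147W kidneys, against 10.34, 10.20, 10.23 and 10.28 in TgUmodwt kidneys of females of 1 month and 9.87, 9.97, 9.77 and 9.76 in TgUmodC147W kidneys, against 10.67, 10.65, 10.75 and 10.63 in TgUmodwt kidneys of males. Every TgUmodC147W array lay below every TgUmodwt array of its comparison. The differences were -0.43 ± 0.09 (adjusted p = 0.016), -0.51 ± 0.11 (adjusted p = 0.0105) and -0.83 ± 0.08 (adjusted p = 2.54e-05), and -0.41 in females of 1 month without the array low in Xist (adjusted p = 0.0212). Leaving out TgUmodwt replicate 2 or TgUmodC147W replicate 3 at 2 months gave adjusted p of 0.0531 and 0.0503. A dimmer Shmt2 probe passed the test in males alone (-0.80, adjusted p = 0.000907), with -0.55 and -0.22 in females of 2 months and 1 month (adjusted p = 0.141 and 0.449).

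The enzymes that make serine, Phgdh and Psat1, were not called in any of the 3 comparisons. Phgdh, which catalyses the first step, differed by 0.05 (adjusted p = 0.821) and -0.27 (adjusted p = 0.0774) in females and 0.02 (adjusted p = 0.883) in males. Psat1, the aminotransferase of the next step, differed by -0.24 (adjusted p = 0.378), -0.43 (adjusted p = 0.0666) and -0.18 (adjusted p = 0.118), all below 0. Both were called lower in females of 1 month without TgUmodC147W replicate 4 (-0.33 and -0.58, adjusted p = 0.0381 and 0.00388). Of the 7 tested genes of glycine and serine breakdown, 1 fell in females of 2 months and 5 fell in females of 1 month. In males 3 fell and 1 rose. The shares of all genes that fell were 3.01%, 7.64% and 15.5% in these comparisons, and 21.9% rose in males. Dmgdh, dimethylglycine dehydrogenase, fell by 0.76, 1.30 and 0.87 in these comparisons, and Sardh, sarcosine dehydrogenase, fell by 0.72 in females of 1 month and 0.82 in males. Gnmt, glycine N-methyltransferase, fell by 0.81 and 0.77 in the same kidneys.

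Gpt2, a mitochondrial alanine aminotransferase, was lower in TgUmodC147W at 1 month. Females of that age read 9.28, 9.39, 9.12 and 9.61 in TgUmodC147W kidneys, against 10.16, 10.19, 10.08 and 10.21 in TgUmodwt kidneys, and males 9.46, 9.76, 9.41 and 9.51 in TgUmodC147W kidneys, against 9.92, 10.02, 10.10 and 10.10 in TgUmodwt kidneys. The groups were apart in both, by -0.81 ± 0.11 (adjusted p = 0.00112) and -0.50 ± 0.09 (adjusted p = 0.00184), and by -0.82 in females without the array low in Xist (adjusted p = 0.00388). At 2 months both genotypes were higher, 10.55, 10.87, 11.01 and 10.89 in TgUmodC147W kidneys, against 10.80, 10.57, 10.91 and 10.64 in TgUmodwt kidneys, and overlapped (difference 0.10 ± 0.12 (adjusted p = 0.696)). Cth, which makes cysteine from cystathionine, was not called, with -0.15 (adjusted p = 0.579), -0.13 (adjusted p = 0.572) and -0.16 (adjusted p = 0.237).

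Chac1, an enzyme that degrades glutathione and a well-known late target of the ATF4 and CHOP branch, rose at 2 months. Its levels there were 8.67, 8.53, 9.07 and 8.63 in TgUmodC147W kidneys, against 7.57, 7.45, 7.44 and 7.05 in TgUmodwt kidneys. Those of 1 month were 6.97, 7.78, 7.58 and 7.20 in TgUmodC147W kidneys, against 6.61, 6.54, 7.15 and 6.97 in TgUmodwt kidneys of females and 6.25, 6.88, 6.76 and 7.04 in TgUmodC147W kidneys, against 6.43, 6.20, 6.88 and 6.25 in TgUmodwt kidneys of males. The groups were apart at 2 months and overlapped at 1 month, where 3 of 4 TgUmodwt females, and in males 3 of 4 TgUmodC147W and 1 of 4 TgUmodwt arrays, detected it. The differences were 1.35 ± 0.14 (adjusted p = 0.000295), 0.57 ± 0.19 (adjusted p = 0.0708) and 0.29 ± 0.18 (adjusted p = 0.236). Leaving out TgUmodC147W replicate 1 gave a call at 1 month in females (0.71, adjusted p = 0.0331), and leaving out the array low in Xist gave 0.44 (adjusted p = 0.176).

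Among the amino acid transporters Slc3a2, the heavy chain shared by several exchangers, was the only one detected. It read 7.59, 7.76, 7.44 and 7.62 in TgUmodC147W kidneys, against 7.05, 7.30, 7.02 and 7.08 in TgUmodwt kidneys of males, a difference of 0.49 ± 0.09 (adjusted p = 0.00224) without overlap. In females it read 7.28, 8.00, 7.10 and 7.41 in TgUmodC147W kidneys, against 7.59, 7.61, 7.75 and 7.81 in TgUmodwt kidneys at 2 months and 8.10, 7.70, 7.68 and 8.31 in TgUmodC147W kidneys, against 7.85, 7.96, 8.45 and 8.06 in TgUmodwt kidneys at 1 month. These overlapped, with -0.24 (adjusted p = 0.453) and -0.13 (adjusted p = 0.66), and at 2 months a fall was called without TgUmodC147W replicate 2 (-0.42, adjusted p = 0.035).

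Of the 8 genes of tRNA charging and export, none was called in either female comparison, and in males 1 rose and 2 fell. Of all genes tested, 21.9% rose and 15.5% fell in males, and 5.38% to 10.3% rose and 3.01% to 7.64% fell in females. Sars, seryl-tRNA synthetase, was -0.38 (adjusted p = 0.00266) in males, and Xpot, the tRNA exporter, -0.38 (adjusted p = 0.00863). Gars, Wars, Nars, Mars and Eprs were not called in any comparison, and their differences ran from -0.19 (Eprs in males) to 0.23 (Gars and Mars in females of 1 month, Nars in females of 2 months). Gars, glycyl-tRNA synthetase, lay above all TgUmodwt arrays on all TgUmodC147W arrays of each comparison, with 0.17 (adjusted p = 0.255), 0.23 (adjusted p = 0.0731) and 0.18 (adjusted p = 0.0664); several alternatives called it at 1 month, among them the authors' normalized values (adjusted p = 0.0245 in females and 0.0435 in males). A dimmer Sars probe fell in males as well (-0.61, adjusted p = 0.00056), and a dimmer Xpot probe too (-0.32, adjusted p = 0.0423). The only detected probe of Aars is given to Exosc6 in the second deposited table, so its name is in doubt. That probe read 7.87, 8.03, 7.59 and 7.58 in TgUmodC147W kidneys, against 7.21, 7.40, 7.44 and 7.31 in TgUmodwt kidneys of males, a difference of 0.43 ± 0.11 (adjusted p = 0.013). Female levels overlapped, 6.86, 7.30, 7.27 and 7.79 in TgUmodC147W kidneys, against 7.10, 7.52, 7.89 and 8.03 in TgUmodwt kidneys at 2 months and 7.85, 7.85, 7.40 and 7.78 in TgUmodC147W kidneys, against 7.59, 7.38, 8.11 and 7.98 in TgUmodwt kidneys at 1 month, and were not called (-0.33 (adjusted p = 0.434) and -0.04 (adjusted p = 0.901)). Of 10 other cytosolic tRNA synthetases tested, Cars rose in males (0.68, adjusted p = 0.000257), and none was called in the female genotype comparisons. With age Farsb fell in TgUmodC147W females by 0.33 (adjusted p = 0.0289), and the genotype effect differed between the sexes, males minus females, for Cars (0.83, adjusted p = 0.00253) and Farsb (-0.41, adjusted p = 0.0449).

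Stc2, stanniocalcin 2, a secreted glycoprotein induced by ER stress, had the widest male difference of the members. Males read 8.50, 8.94, 8.17 and 8.10 in TgUmodC147W kidneys, against 6.98, 7.29, 7.26 and 6.97 in TgUmodwt kidneys, a difference of 1.30 ± 0.17 (adjusted p = 0.000198). The groups were also apart in females of 2 months, 8.00, 7.64, 8.03 and 7.91 in TgUmodC147W kidneys, against 7.15, 7.16, 7.18 and 7.32 in TgUmodwt kidneys, by 0.69 ± 0.10 (adjusted p = 0.00277). Those of 1 month read 8.20, 7.85, 8.14 and 8.27 in TgUmodC147W kidneys, against 8.03, 8.22, 7.66 and 7.69 in TgUmodwt kidneys and overlapped (0.21 (adjusted p = 0.364)). Vldlr, a lipoprotein receptor raised by ATF4 under ER stress, was not called, with -0.22 (adjusted p = 0.247), 0.03 (adjusted p = 0.879) and -0.02 (adjusted p = 0.866).

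**Figure D3:**
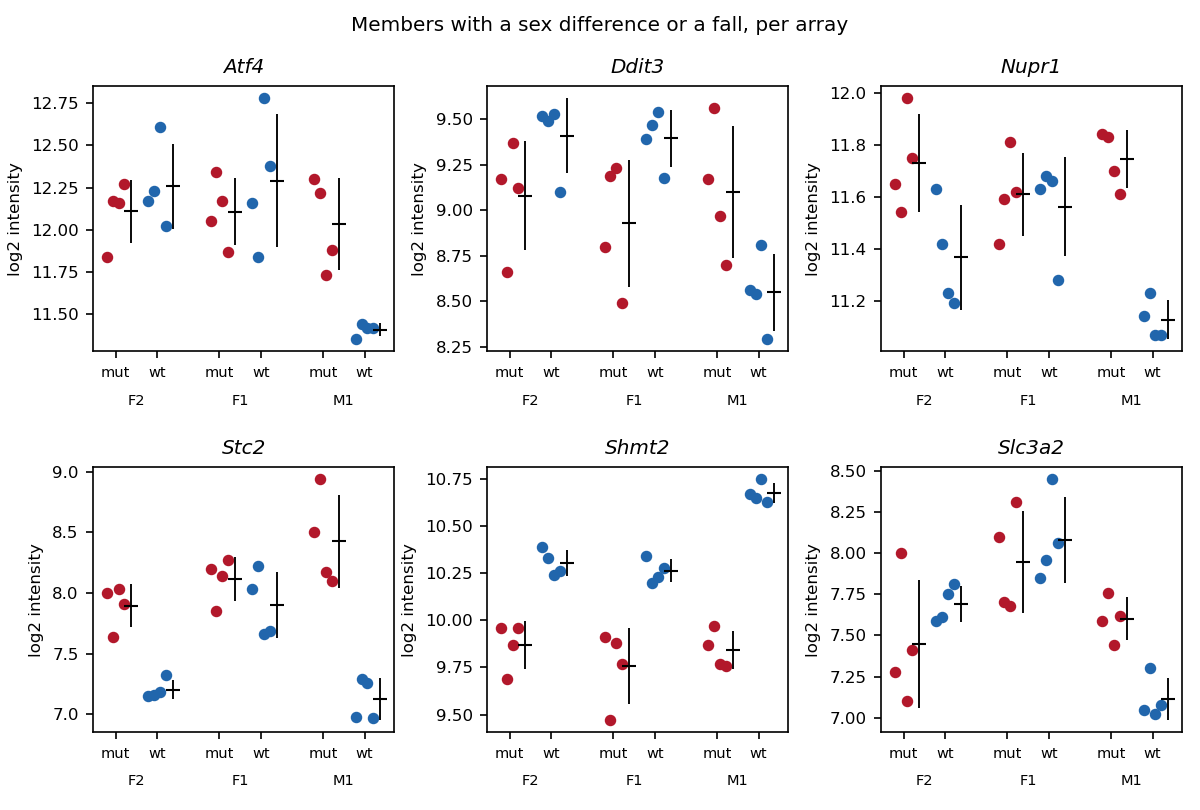
Log2 intensity (y axis) of Atf4, Ddit3, Nupr1, Stc2, Shmt2 and Slc3a2 on each array of females of 2 months (F2), females of 1 month (F1) and males of 1 month (M1), TgUmodC147W (mut, red) left of TgUmodwt (wt, blue), with the mean and SD of 4 arrays. Shmt2 is lower in TgUmodC147W in each pair, while Atf4, Nupr1 and Slc3a2 are apart in males and overlap in females.

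Whether the genotype effect differed between the sexes at 1 month was tested by the interaction term over the 16 arrays of that age, which 5 of 33 members passed, where 7.76% of all genes did. The difference of the effects, males minus females, was 1.09 ± 0.24 for Stc2 (adjusted p = 0.0107), 1.02 ± 0.25 for Ddit3 (0.0214), 0.57 ± 0.14 for Nupr1 (0.0248), 0.81 ± 0.23 for Atf4 (0.0448) and -0.55 ± 0.16 for Mthfd2 (0.0477). The first 4 were thus more positive in males, and Mthfd2 in females. Without the array low in Xist they were 1.00, 1.10, 0.56, 0.88 and -0.45, and Mthfd2 no longer passed (adjusted p = 0.081). The Atf4 term was lost in 12 of 16 fits that left out an array (adjusted p up to 0.0922) and held without TgUmodC147W males replicate 3 or 4 or either female replicate 2. The Mthfd2 term was lost in 13 (up to 0.0901) and held without TgUmodC147W males replicate 4, TgUmodC147W females replicate 1 or TgUmodwt females replicate 3. With the mean of a gene's probes neither term passed, at 0.63 for Atf4 (adjusted p = 0.152) and -0.43 for Mthfd2 (adjusted p = 0.188). Nupr1 was lost in 4 (TgUmodwt males replicate 3 or 4, TgUmodC147W males replicate 1 or TgUmodwt females replicate 1, up to 0.0536). Stc2 and Ddit3 passed in all 16. Beside these, TAL marker sums in females of 1 month were 125876 to 138609 in TgUmodC147W against 119466 to 125532 in TgUmodwt kidneys, and the part of cell number in the difference between the sexes was not tested.

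Between the ages, TgUmodC147W females of 2 months were set against TgUmodC147W females of 1 month, and the same was done for TgUmodwt. These comparisons share arrays with the genotype comparisons above. In TgUmodC147W females 5 of 33 members rose with age and 1 fell, where 6.23% of all genes rose and 6.91% fell. In TgUmodwt females 1 of 31 rose and 2 fell, where 1.65% rose and 1.85% fell. The ages did not overlap for 6 members higher and 1 lower in TgUmodC147W (9.03% and 11.7% of all genes) and for 1 higher and 4 lower in TgUmodwt (5.77% and 5.66%).

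The 5 that rose in TgUmodC147W were Gpt2, Chac1, Trib3, Asns and Atf5, with differences of 1.48 ± 0.13 (adjusted p = 9.31e-05), 1.34 ± 0.18 (adjusted p = 0.00109), 1.26 ± 0.14 (adjusted p = 0.000354), 0.98 ± 0.16 (adjusted p = 0.00348) and 0.85 ± 0.14 (adjusted p = 0.00403). Without the array low in Xist these were 1.49, 1.47, 1.32, 1.13 and 0.92, all past the test, and Mthfd2 passed as well (0.48, adjusted p = 0.0188). For Trib3, 2 of 4 arrays of 1 month measured it above background. Gpt2 rose in TgUmodwt too, by 0.57 ± 0.09 (adjusted p = 0.00949). In TgUmodwt Chac1 was 0.56 ± 0.15 (adjusted p = 0.0829), Asns 0.60 ± 0.19 (adjusted p = 0.138) and Atf5 0.01 ± 0.14 (adjusted p = 0.979), and Trib3 was not detected. The dimmer Asns probe rose in TgUmodC147W by 1.24 (adjusted p = 0.00365). In TgUmodwt it was at least 1.18-fold higher at 2 months (adjusted p = 0.0276), a description, since no TgUmodwt array of 1 month detected it. Asns also passed in TgUmodwt with the mean of its probes (adjusted p = 0.0423) and with median scaling (adjusted p = 0.0281). Asns and Aldh1l2 passed there with the replicate number as a block (adjusted p = 0.0266 and 0.0126), which put 3 members up there in place of 1. Phgdh fell in both genotypes, with -0.35 ± 0.10 (adjusted p = 0.0469) in TgUmodC147W, a call that every fit without 1 array lost but the fit without the array low in Xist (adjusted p up to 0.0997), and -0.67 ± 0.09 (adjusted p = 0.00243) in TgUmodwt. Stc2 fell in TgUmodwt by 0.70 (adjusted p = 0.0153, and 0.0513 without TgUmodwt females of 2 months replicate 2) and was -0.22 (adjusted p = 0.28) in TgUmodC147W. Atf4 (0.00 (adjusted p = 0.987) and -0.03 (adjusted p = 0.952)) and Ddit3 (0.15 (adjusted p = 0.66) and 0.02 (adjusted p = 0.965)) were not called with age in TgUmodC147W or TgUmodwt. The brightest Sars probe was not called with age in TgUmodC147W (adjusted p = 0.153). A dimmer Sars probe rose there (0.52, adjusted p = 0.0093), and so did the mean of the Sars probes (0.37, adjusted p = 0.0108). In TgUmodwt the dimmer probe was 0.11 (adjusted p = 0.676).

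**Figure D4:**
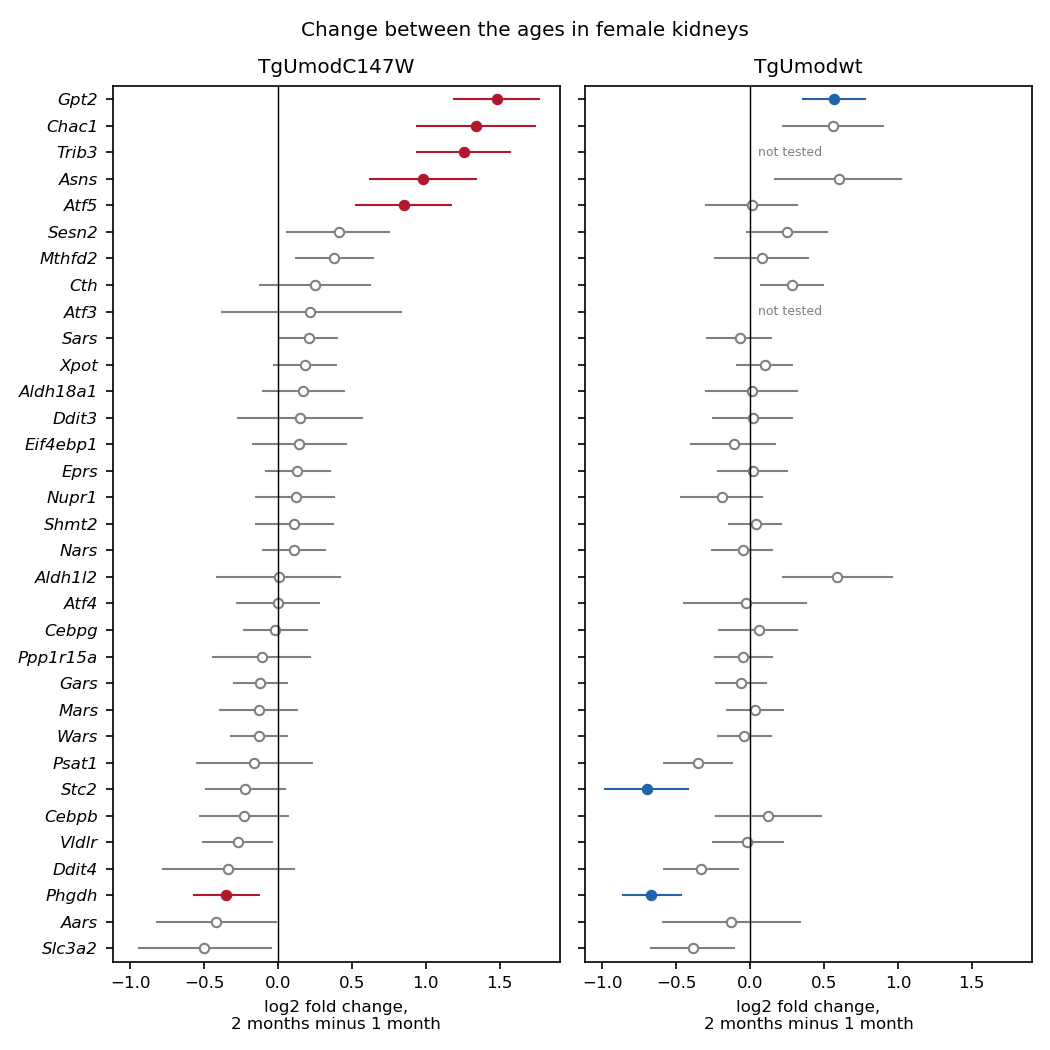
Log2 fold change of females of 2 months minus females of 1 month (x axis) in TgUmodC147W (left) and TgUmodwt (right) kidneys for the detected members, ordered by the TgUmodC147W value, with 95% confidence intervals; filled points passed the test (adjusted p under 0.05). Gpt2, Chac1, Trib3, Asns and Atf5 lead on the left, and Gpt2 is the filled point to the right of 0 in TgUmodwt.

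The genotype effect at 2 months differed from that at 1 month for 2 of 33 members (1.33% of all genes). These were Trib3 (adjusted p = 0.00627) and Gpt2, by 0.91 ± 0.16 (adjusted p = 0.0117), 2 months minus 1 month. The fitted Trib3 term was positive. No TgUmodwt array of either age detected Trib3, so it entered the test through TgUmodC147W arrays alone, and no measured size can be given. Both Trib3 and Gpt2 passed in all 16 fits that left out an array. Without the array low in Xist, Trib3 had an adjusted p of 0.00939, and Gpt2 was 0.92 (adjusted p = 0.0242). The same term was 0.83 ± 0.21 for Atf5 (adjusted p = 0.0653), 0.78 ± 0.26 for Chac1 (adjusted p = 0.172) and 0.38 ± 0.27 for Asns (adjusted p = 0.626), which did not pass. Red cell markers fell with age in TgUmodC147W (Alas2 -1.73, adjusted p = 0.0142; genotype by age -2.38, adjusted p = 0.0289), and fibroblast markers fell in 2 of 6 genes in TgUmodC147W and 2 of 5 in TgUmodwt; their part in the age differences was not tested.

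**Figure D5:**
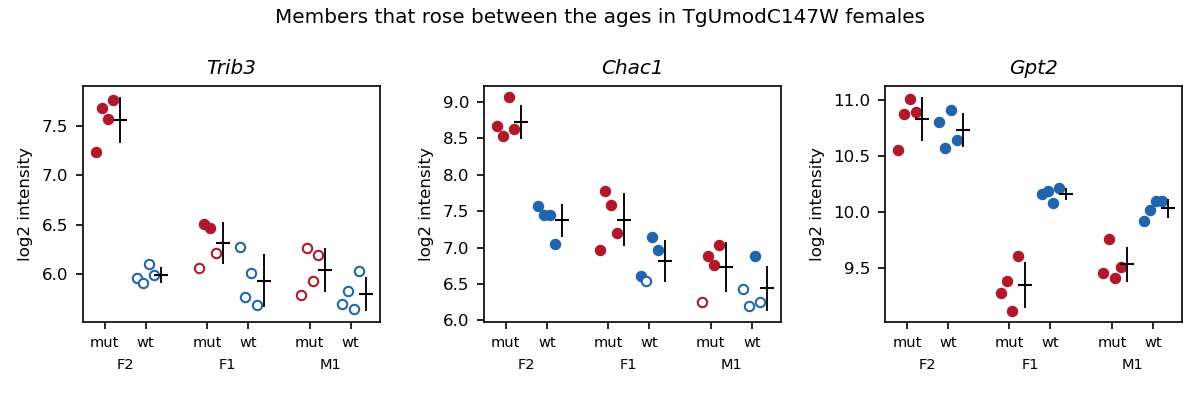
Log2 intensity (y axis) of Trib3, Chac1 and Gpt2 on each array of females of 2 months (F2), females of 1 month (F1) and males of 1 month (M1), TgUmodC147W (mut, red) left of TgUmodwt (wt, blue), filled where detected, with the mean and SD of 4 arrays. Trib3 is detected on all 4 arrays of TgUmodC147W females of 2 months, at 7.24 to 7.77, and on 2 other arrays.

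Genes upstream of ATF4 and of the other ER branches had no genotype call in females and calls at or near the share of all genes in males (21.9% risen and 15.5% fallen). Of 13 tested genes of the eIF2 kinases, eIF2 and its exchange factor, none was called in females of 2 months or 1 month, and in males 2 rose, Eif2b4 (0.29) and Eif2ak2 (0.26), and 1 fell, Ppp1r15b, by 0.40. With age Impact rose in TgUmodC147W females (0.49, adjusted p = 0.00403). Of 15 tested genes of ATF6 and XBP1, none was called in either female comparison, with medians of 0.00 at 2 months and 0.14 at 1 month. In males 3 of the 15 rose, Sdf2l1 (0.78), Creld2 (0.73) and Hyou1 (0.38), and 2 fell, Edem1 by 0.52 and Sel1l by 0.31. With age Edem1 rose in TgUmodC147W females (0.39, adjusted p = 0.0387). By the interaction terms of limma 0 genes of either list differed in genotype effect between the sexes or between the ages. Unadjusted p-values were under 0.05 for 4 genes in the sex term, Eif2b4, Ppp1r15b, Sdf2l1 and Creld2 (adjusted p = 0.223, 0.155, 0.151 and 0.144), and for 1 in the age term, Herpud1 (adjusted p = 0.209).

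Of 6 further genes known as targets of ATF4, none was called in females of 2 months. Among them 1 rose and 2 fell in females of 1 month, and 3 rose and 2 fell in males. The shares of all genes that rose were 5.38%, 10.3% and 21.9% in these comparisons, and 3.01%, 7.64% and 15.5% fell. Slc38a2, a neutral amino acid transporter, rose in males by 1.44 (adjusted p = 8.02e-06). Fam129a, a suppressor of cell death also called niban, rose by 1.23 in females of 1 month and 0.66 in males. Slc1a4, a transporter of alanine, serine and cysteine, fell by 0.76 and 1.32 in the same kidneys, and Slc6a9, a glycine transporter, fell by 0.95 in males (adjusted p = 1.34e-05). Jdp2, a repressor of the AP-1 family, rose by 0.70 in males. The genotype effect differed between the sexes, males minus females, for Slc38a2 (0.95, adjusted p = 0.0121) and Slc6a9 (-0.59, adjusted p = 0.0438). Cebpd rose with age in both genotypes, by 2.00 in TgUmodC147W (adjusted p = 9.22e-07) and 1.22 in TgUmodwt (adjusted p = 0.0144). Immediate early genes, which respond to many stimuli and to handling of tissue, rose in 2 of 10 genes in females of 2 months, 3 of 10 in females of 1 month and 8 of 10 in males, with medians of 0.32, 0.36 and 0.62 where genes not above background in a whole group were set at their bound. Egr2 was at least 1.40-fold higher at 2 months and at least 1.35-fold higher in females of 1 month (adjusted p = 3.21e-06 and 0.000382). This is a description, since no TgUmodwt female array detected Egr2. Among these early genes Egr1 (1.23) and Ier3 (1.10) rose in males. Atf3, itself an early-response gene, rose in the same 3 comparisons, and their part in it was not tested.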

How the data were processed

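Whole kidney RNA of 24 FVB mice, 6 groups of 4, was hybridised to MouseWG-6 v2.0 arrays. Per the methods of the authors, GenomeStudio exported the deposited probe intensity values, linear and not normalized, with detection p-values against the negative controls of each array. The deposited second table holds intensity values that the authors normalized by cubic spline. Median intensities were 114.6 to 176.6 before and 134.0 to 134.1 after it, and the number of arrays limits the precision.

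The first table was background-corrected with the detection p-values and quantile-normalized (neqc, offset 16; limma 3.58.1, statmod 1.5.0, R 4.3.3). Probes with detection p under 0.01 on at least 1 array of a comparison were fitted with lmFit and eBayes on the 8 arrays compared (16 for interactions), with Benjamini-Hochberg adjustment over all of them and 0.05 as threshold. P-values measure the spread between animals. A gene took its brightest probe, by its mean over the 24 arrays. The probe identifiers of the tables differ for 13666 of 45281 probes (30.2%), so rows were matched by value; probes that both tables give to the same gene were taken first, and names came from the platform annotation in GEO with its Entrez numbers (Mars is listed as Mars1). Of the 51 detected probes of the members, 50 had the same gene in both tables.

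Where no array of a group measured a probe above background, a fold is given only as a bound, against the lowest signal among probes detected on each array, or not at all. Sums over marker lists are of linear intensity.

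The members, the lists of markers and related genes, and the alternatives were chosen with earlier results of these data known. Values of each array are given for Atf3, Atf4, Ddit3, Trib3 and up to 16 further members with the largest called genotype differences, and for members past an interaction. From each other list up to 4 of the genes with the largest called change are named. The fit was tested on simulated data. Same-numbered arrays deviated together, every correlation over 0.1, only between the ages in TgUmodwt (0.104 to 0.327), with no source stating that numbers pair animals. The alternatives were the authors' values, no background correction, median scaling, 2 other filters on dim probes, 1 fit over all arrays, averaging the probes of a gene, a trended and robust prior, members named alike in both tables, the replicate number as a block, and leaving out each array. Array positions on slides were not used here. Promoter windows were searched in Python 3.11.15.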

Additional observations from a re-analysis of the deposited data

Results flagged for a closer look

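Single arrays stood apart from the other 3 of their group in 8 of 120 pairs of gene and group (20 members with values of each array, 6 groups); the test marks about 1 in 20 groups by chance. Lower than the rest were Atf3 in TgUmodwt males replicate 2 (4.82, group median 4.93), Atf3 in TgUmodwt females of 1 month replicate 2 (5.01, median 5.33), Ddit3 in TgUmodwt females of 2 months replicate 4 (9.10, median 9.50), Nupr1 in TgUmodwt females of 1 month replicate 4 (11.28, median 11.64), Cebpb in TgUmodC147W males replicate 3 (11.55, median 11.69) and the Aars probe in TgUmodC147W females of 1 month replicate 3 (7.40, median 7.82). Higher than the rest were Asns in TgUmodC147W males replicate 4 (9.01, median 8.42) and Aldh18a1 in TgUmodwt females of 2 months replicate 1 (7.17, median 6.68). Both Atf3 values were below background.

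The genotype effect differed between the ages of females by the interaction term of limma for Gpt2 (0.91, 2 months minus 1 month). Trib3 also passed this term, with a fitted value of 1.20. No TgUmodwt array of either age detected Trib3, so 1.20 is not a measured difference, and the result is a description. Between the sexes at 1 month the genotype effect differed for Stc2 (1.09, males minus females), Ddit3 (1.02), Atf4 (0.81), Nupr1 (0.57) and Mthfd2 (-0.55).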

How the results depend on the processing

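Of 57 called results of single members, 41 passed the test under every alternative run and 16 lost it under at least 1; none changed direction. In females of 1 month 4 members fell with the authors' normalized values, with 1 fit over all arrays and with a trended, robust prior, and 4 rose without the filter on dim probes, where Atf3, Atf5 and Cebpb did not pass, and with the replicate block. In TgUmodC147W females the number that fell with age was 0 with median scaling, without the filter and with the replicate block, and 2 with 1 fit over all arrays; in TgUmodwt females 5 rose with median scaling, 2 with the mean of a gene's probes and 3 with the replicate block. The interaction with age held for 1 member when probes detected on fewer arrays were left out, which removed Trib3, and that with sex for 3 without the filter and with the replicate block. Median scaling moved the median of all probes to 0.105 in males and 0.15 between the ages in TgUmodwt, against 0.02 and 0.00; the Sesn2 value in males was then not called (adjusted p = 0.205).

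Leaving out 1 array gave 7 to 10 risen and 0 to 2 fallen at 2 months, 4 to 7 and 2 to 4 in females of 1 month, 14 to 16 and 4 to 5 in males, 5 to 6 and 0 to 1 with age in TgUmodC147W, 1 to 2 and 1 to 2 in TgUmodwt, and 2 to 3 and 2 to 6 past the interactions with age and sex. The lowest value for sex, 2, came without TgUmodC147W males replicate 1, TgUmodwt males replicate 3 or 4 or TgUmodwt females replicate 1. With age, calls were gained for Slc3a2 (-0.68, adjusted p = 0.0304) without TgUmodC147W females of 2 months replicate 2, the Aars probe (-0.58, 0.0441) without replicate 4, Sesn2 (0.54, 0.0277) without TgUmodC147W females of 1 month replicate 4, Asns (0.78, 0.0454) without TgUmodwt females of 2 months replicate 2 and Aldh1l2 (0.73, 0.0328) without TgUmodwt females of 1 month replicate 4. Gars was called higher at 1 month in both sexes with the authors' values, no background correction, 1 fit over all arrays and a trended, robust prior (adjusted p 0.00664 to 0.0378 in females and 0.0235 to 0.0435 in males), and these 4 also called Psat1 lower in females (0.0213 to 0.0385). In males Gars was also called without the filter (0.0389) and with the mean of its probes (0.0439).

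The replicate block ended the calls of Atf3, Atf5 and Cebpb in females of 1 month (adjusted p = 0.0718, 0.0633 and 0.0657), Eif4ebp1 and Aldh1l2 at 2 months (0.0651 and 0.0646), Phgdh with age in TgUmodC147W (0.0861) and the sex terms of Atf4 and Mthfd2 (0.0757 and 0.0694), and added Ddit3 in females of 1 month (-0.47, 0.0341). Same-numbered arrays of the genotype comparisons correlated at -0.135 to 0.274, and no source says that a number marks the same litter, batch or day. The cause of these changes was not tested. Signal over background limits Atf3, Trib3 and Aldh1l2, and 4 members with a probe have no value.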
